A study of Mus musculus with 38 samples.

Results

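The hypoxia response genes described here are 10 genes, Hif1a, Epas1, Egln1, Egln3, Vegfa, Adm, Bnip3, Car9, Ndrg1 and Ankrd37, out of 46078 genes counted in RNA sequencing of mouse intestinal epithelial cells. They were taken by symbol from the gene names in the count files, and each symbol was found once. The 38 libraries each come from 1 mouse of the C57BL/6 strain, in 6 groups of genotype and day. All mice carried loxP-flanked (floxed) Hk2 alleles. KO mice also carried a Cre recombinase driven by the Villin promoter, which acts in epithelial cells of the gut, whereas WT mice were littermates with floxed Hk2 alone. Hk2 encodes hexokinase 2, which catalyses the first step of glycolysis. Mice were untreated (WT day 0, n = 4, and KO day 0, n = 5) or had received 1.5% dextran sodium sulfate (DSS), which injures the colonic epithelium and causes colitis, for 3 days (WT, n = 7, and KO, n = 8) or 7 days (n = 7 for each genotype). DSS was given to male mice of 10 to 12 weeks, while the untreated mice were 9 to 11 or 86 to 92 weeks old if they belong to the basal cohorts of the labels, which do not say so. The series text names colon tissue, and the labels of the samples give epithelial cells isolated from the intestine.

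Hypoxia-inducible factors are dimers of an oxygen-sensitive alpha subunit, encoded by Hif1a or Epas1, and a stable beta subunit, Arnt. In oxygenated cells the prolyl hydroxylases encoded by Egln1 and Egln3 mark the alpha subunit for destruction by the von Hippel-Lindau ubiquitin ligase, and at low oxygen the subunit accumulates and activates genes through short DNA elements. The colonic epithelium lies beside an almost anaerobic lumen and is known for low oxygen at its surface. Regulation of the alpha subunits is largely at the protein level, so the RNA of Hif1a and Epas1 does not measure factor activity, whereas Egln3, Car9, Bnip3, Ndrg1, Adm, Vegfa and Ankrd37 are known target genes.

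Total counts per library were 10.503 M to 44.9 M on day 0 and 25.2 M to 60.6 M on days 3 and 7. The 9 day 0 libraries carry another prefix letter in their file names than the 29 others, and what it stands for is not stated. An effect of day 0 cannot be told apart from one that goes with this letter, or from one of age if the untreated mice were older. Levels are CPM (counts scaled to a common library total), after TMM scaling, which adjusts each total for differences in composition. The targeted gene, Hk2, was 254 to 449 CPM in WT and 33.1 to 118 CPM in KO on day 0. On day 3 Hk2 was 97.0 to 220.5 CPM in WT and 68.4 to 128 CPM in KO except for the library labelled d3_KO_345, which had 435 CPM, above every WT library of that day. The lowest WT value of day 3, 97.0 CPM in the library labelled d3_WT_346, was under the next WT library (143 CPM) and under 4 of the 8 KO libraries. On day 7 it was 228 to 611 CPM in WT and 56.1 to 268 CPM in KO, where the library labelled d7_KO_420, at 268 CPM, was above the lowest WT library and the next KO library had 195 CPM. These 3 libraries are named by their labels, and without them the Hk2 levels of the genotypes did not overlap on day 3 or day 7. Other libraries lay within the range of the other genotype only because of these 3. Among them were d7_WT_431, at 228 CPM on day 7, and KO libraries of day 3 above the library labelled d3_WT_346. Counts of called members are given with and without these 3 libraries below.

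Epithelial markers (8 genes, among them Epcam, Cdh1 and Vil1) summed to 9488 to 19082 CPM over all libraries. Summed CPM of 12 myeloid markers, among them S100a8, Itgam and Lyz2, was 30.5 to 43.3 on day 0. On day 3 it was 40.9 to 49.3 in WT and 39.2 to 202 in KO, with a KO median of 45.2 and the highest value in the library labelled d3_KO_345. On day 7 it was 130.3 to 1718, and all 12 markers were called higher than on day 3 in both genotypes. Endothelial markers (8 genes) summed to 3.68 to 12.2 CPM. Among them, group means were 2.27 to 4.04 CPM for Pecam1, 1.31 to 4.03 CPM for Vwf and 0.0388 to 0.104 CPM for Cdh5. The mean log2 CPM of 10 small intestine enterocyte genes was 1.40 to 4.58 in KO day 0 and 0.051 to 1.5998 in WT day 0. In such mixed samples, a change in the number of cells of a type and a change in RNA per cell cannot be told apart.

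Levels of different genes were compared per kb of exon. In WT day 3 the highest was Ndrg1 at 33.2 ± 4.07 CPM per kb (SD, n = 7), next to Car9 at 31.2 ± 4.71, Epas1 at 25.05 ± 2.32 and Hif1a at 22.2 ± 9.28. Egln1 at 14.2 ± 1.35, Vegfa at 14.2 ± 1.89 and Egln3 at 11.4 ± 4.34 CPM per kb formed a middle range. Ankrd37 at 5.13 ± 3.51, Adm at 2.93 ± 1.09 and Bnip3 at 2.85 ± 0.82 CPM per kb were lowest. Neighbours within each of these 3 ranges differed by less than the SD of at least one of them, other than Car9 and Epas1. On day 7 in WT, Egln3 stood at 29.99 ± 11.3 CPM per kb, the fourth place instead of the seventh, beside Hif1a at 33.4 ± 11.7.

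Coordinates are those of the count files, with the GRCm38 build given in the submitters' processing notes. Hif1a lies at chr12:73901375-73947530 on the plus strand, Epas1 at chr17:86753907-86833410 (plus), Egln1 at chr8:124908596-124949254 (minus) and Egln3 at chr12:54178981-54203860 (minus). Vegfa lies at chr17:46016993-46032377 (minus), Adm at chr7:110627661-110629820 (plus), Bnip3 at chr7:138890836-138909519 (minus), Car9 at chr4:43506966-43513729 (plus), Ndrg1 at chr15:66929321-66969640 (minus) and Ankrd37 at chr8:45996902-45999867 (minus). Counting ignored strand, and exons of 4 of the genes overlap exons of a gene on the opposite strand. Of the 1403 exon bases of Ankrd37, 57 are shared with Ufsp2, and a longer stretch with Lrp2bp, and of the 2304 of Car9, 214 are shared with Gm12454. Hif1a shares 330 of 5896 bases with Gm15283, and Ndrg1 shares 137 of 6593 with Gm2895 and a longer stretch with Gm17035. Reads from these stretches cannot be assigned to one strand, which bears most on Ankrd37, the shortest of the 10.

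The core of the hypoxia response element was searched in RefSeq promoter windows (GRCm38.p6, 250 bases before to 50 after a start site) as the letters ACGTG or GCGTG on either strand. A palindromic CACGTG counts once on each strand, and CACGCGTG likewise holds 2 overlapping matches. Windows were found for 8 of the 10 genes, and Epas1 and Ndrg1 were without one. All 8 had a match in at least 1 window, 8 of 9 windows in all, where 43.8% of 32851 windows and 46.7% of 27025 genes had one. Bnip3 had 5 matches, Ankrd37 had 4, Hif1a had 3, Egln1, Adm and Vegfa had 2 each, and Car9 and Egln3 had 1 each. Those of Vegfa were in a window inside the gene, and the window at the gene's own start had none of these letters. The only window of Hif1a, chr12:73907617-73907916, also lay inside the gene by the coordinates above, so its matches are not at the gene's own start. The 250 bases before the start are printed for Bnip3 (chr7:138909507-138909756, minus strand), Egln3 (chr12:54203875-54204124, minus), Ankrd37 (chr8:45999851-46000100, minus), Car9 (chr4:43506776-43507025, plus) and Adm (chr7:110627407-110627656, plus), the 5 genes with a window that were called higher on day 7 than on day 3 in at least 1 genotype. Capitals mark the matches.
Bnip3: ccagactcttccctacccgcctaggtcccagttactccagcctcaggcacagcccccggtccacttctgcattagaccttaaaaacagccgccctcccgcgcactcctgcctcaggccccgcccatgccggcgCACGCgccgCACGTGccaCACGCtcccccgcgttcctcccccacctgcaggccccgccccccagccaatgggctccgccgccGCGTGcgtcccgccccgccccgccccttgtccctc
Egln3: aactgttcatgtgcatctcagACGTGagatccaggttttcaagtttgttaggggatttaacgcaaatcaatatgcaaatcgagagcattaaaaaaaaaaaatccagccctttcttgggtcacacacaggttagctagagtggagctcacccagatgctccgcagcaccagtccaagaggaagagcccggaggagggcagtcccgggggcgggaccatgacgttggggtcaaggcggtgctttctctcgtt
Ankrd37: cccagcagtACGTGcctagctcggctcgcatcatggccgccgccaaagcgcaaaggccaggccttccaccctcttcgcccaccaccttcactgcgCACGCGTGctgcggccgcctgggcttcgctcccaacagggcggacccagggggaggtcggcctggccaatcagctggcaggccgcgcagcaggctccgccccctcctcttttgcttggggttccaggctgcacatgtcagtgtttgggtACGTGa
Car9: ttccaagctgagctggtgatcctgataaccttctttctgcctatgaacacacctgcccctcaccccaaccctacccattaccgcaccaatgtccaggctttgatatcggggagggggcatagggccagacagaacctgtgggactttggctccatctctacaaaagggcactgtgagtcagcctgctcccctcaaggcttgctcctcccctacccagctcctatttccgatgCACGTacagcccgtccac
Adm: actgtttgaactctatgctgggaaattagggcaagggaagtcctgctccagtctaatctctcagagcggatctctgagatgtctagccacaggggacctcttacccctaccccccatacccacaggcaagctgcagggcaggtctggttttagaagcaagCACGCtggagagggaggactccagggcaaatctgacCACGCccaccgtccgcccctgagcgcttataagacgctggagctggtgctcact
In Bnip3 the matches began at positions -117, -108, -107, -99 and -35 from the start, in Ankrd37 at -241, -155, -152 and -6, in Egln3 at -229, in Adm at -90 and -54 and in Car9 at -18. A match describes letters only, and binding was not measured.

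The libraries of day 7 and day 3 share the same prefix letter in their file names. In WT, 5 of the 10 genes were called higher and none lower, where 19.3% of 15541 genes tested were called in either direction. They were Egln3, Bnip3, Adm, Ndrg1 and Car9, and their fold changes ran from 1.34 to 2.59. In KO, 3 of the 10 were called higher and none lower, where 19.3% of 15568 genes were called, namely Bnip3, Egln3 and Ankrd37, with folds of 1.98 to 2.04. Bnip3 and Egln3 were thus called in both genotypes, and the share of all genes called in both was not counted. Leaving out the library labelled d3_WT_346, 6 of 10 were called in WT (with Hif1a added), and in KO 2 were called without the library labelled d3_KO_345 (Ankrd37 lost) and 3 without the library labelled d7_KO_420. The median log2 fold change of the 10 was 0.64 in WT and 0.35 in KO, beside 0.013 and -0.0067 over all genes tested. Called means an adjusted p under 0.05 in edgeR's quasi-likelihood test, adjusted by Benjamini-Hochberg over all genes.

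**Figure D1:**
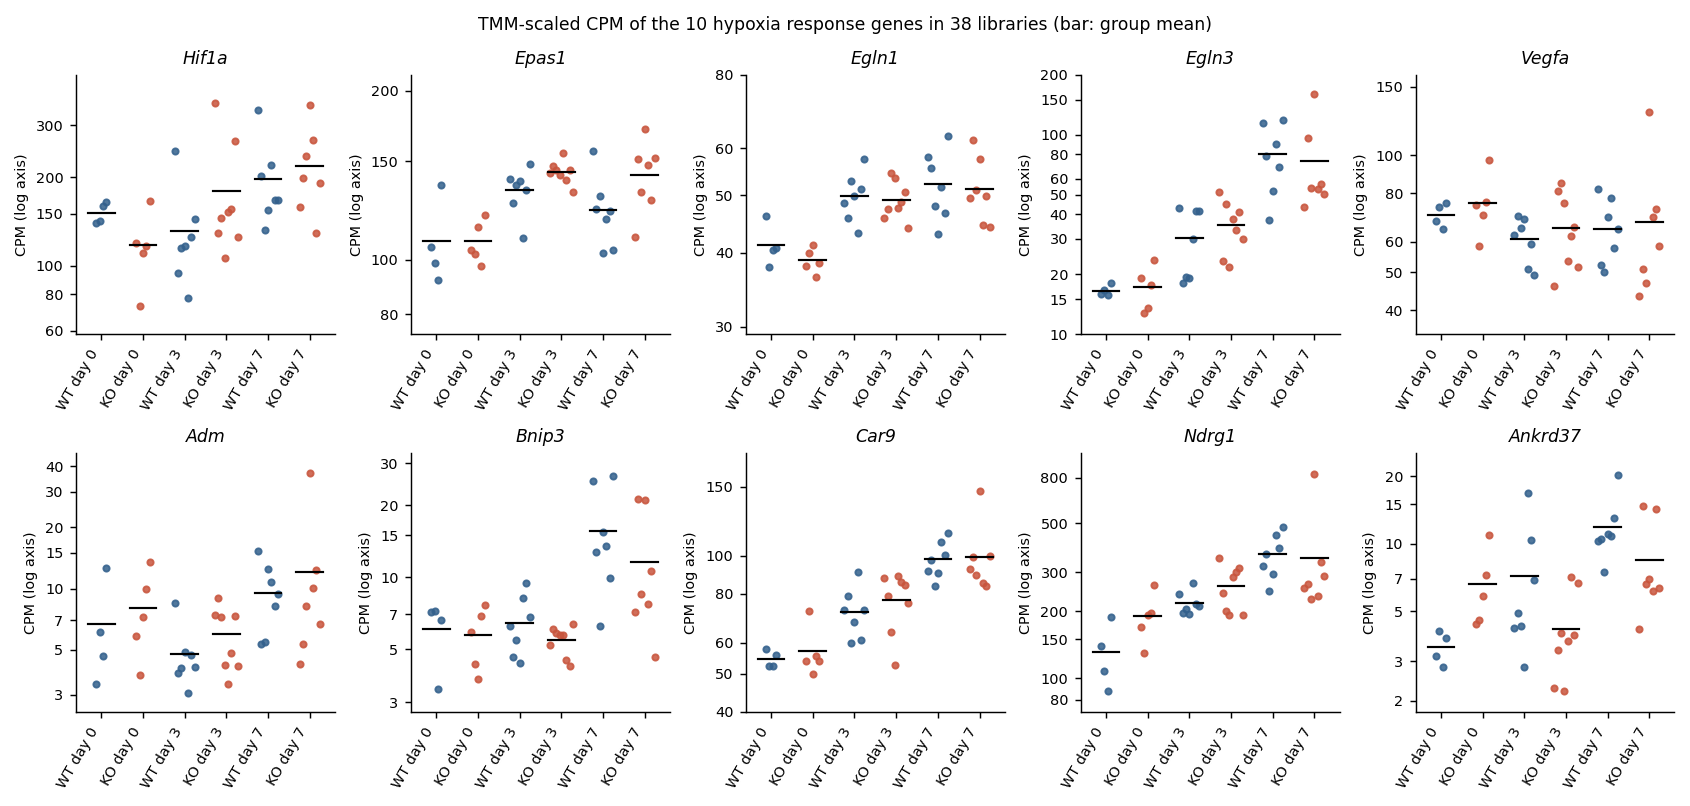
TMM-scaled CPM (log axis) of each gene in every library, by genotype and day (WT blue, KO red), with a bar at the group mean. Egln3 rises from 12.8 to 23.6 CPM on day 0 to 37.3 to 160.3 CPM on day 7, Vegfa stays between 43.4 and 129 CPM throughout, and the library labelled d7_KO_420 lies far above the other KO day 7 libraries for Ndrg1 (829 CPM) and Adm (37.2 CPM).

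Of the 2 alpha subunits, neither was called. Hif1a in WT ran from 77.6 through a median of 116 to 245 CPM on day 3 and from 132 through 167 to 338 CPM on day 7, with a log2 change of 0.57 (SE 0.24, adjusted p 0.109). All 7 WT libraries of day 7 exceeded the day 3 median, but only d7_WT_356 exceeded every day 3 library, because the library labelled d3_WT_346 was itself at 245 CPM. When that library was left out the change in WT was 0.79 (SE 0.20, adjusted p 0.0128), and without d7_WT_356, the highest of day 7, it was 0.39 (SE 0.21, adjusted p 0.246). In KO, Hif1a ran from 106 through 149 to 357 CPM on day 3 and from 129 through 198 to 350.88 CPM on day 7 (log2 fold change 0.25, SE 0.26, adjusted p 0.567). The highest day 3 value was that of the library labelled d3_KO_345, without which the change was 0.46 (SE 0.22, adjusted p 0.147), and without the library labelled d7_KO_420 it was 0.10 (SE 0.25, adjusted p 0.808). Epas1 was the steadier of the pair. Its WT libraries covered 109 to 148 CPM on day 3 and 103 to 157 CPM on day 7 (log2 fold change -0.14, SE 0.092, adjusted p 0.328), and its KO libraries 132 to 155 and 109.8 to 171 CPM (-0.056, SE 0.076, adjusted p 0.671, and -0.061 without the library labelled d3_KO_345). The groups overlapped in both genotypes.

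The 2 hydroxylases parted. Egln3, which is itself a target of the factors it restrains, ran in WT from 18.1 through 29.9 to 42.9 CPM on day 3 and from 37.3 through 78.1 to 118 CPM on day 7. Of the 7 WT libraries of day 7, 6 lay above every day 3 library, and the log2 fold change was 1.37 (SE 0.27, adjusted p 0.00272). In KO, Egln3 ran from 21.6 through 35.5 to 51.6 CPM on day 3 and from 43.6 through 53.8 to 160.3 CPM on day 7 (log2 fold change 1.01, SE 0.27, adjusted p 0.0132). Here 5 of 7 were above every day 3 library, and the highest was the library labelled d7_KO_420. When that library was left out the change was 0.70 (SE 0.20, adjusted p 0.0200), and without the library labelled d3_KO_345, the highest of KO day 3, it was 1.10 (SE 0.27, adjusted p 0.00893). Egln1, the main hydroxylase of resting cells, covered 43.1 to 57.6 CPM on day 3 and 43.1 to 63.1 CPM on day 7 in WT, a log2 fold change of 0.049 (SE 0.089, adjusted p 0.757). In KO it covered 44.0 to 54.4 and 44.2 to 62.0 CPM, with a change of 0.023 (SE 0.072, adjusted p 0.874) that was 0.0062 without the library labelled d3_KO_345 and -0.0034 without the library labelled d7_KO_420.

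Among the secreted products, Adm, which encodes the vasodilator peptide adrenomedullin, was low and variable. In WT it ran from 3.07 through 4.11 to 8.52 CPM on day 3 and from 5.35 through 9.35 to 15.2 CPM on day 7, with a log2 change of 0.98 (SE 0.26, adjusted p 0.0140), with 4 of 7 libraries above every day 3 library. In KO it ran from 3.39 through 6.02 to 9.01 CPM on day 3 and from 4.27 through 8.20 to 37.2 CPM on day 7 (log2 fold change 0.97, SE 0.40, adjusted p 0.105). The value of 37.2 CPM belonged to the library labelled d7_KO_420, and without it the change in KO was 0.36 (SE 0.26, adjusted p 0.359), while without the library labelled d3_KO_345 it was 1.01 (SE 0.42, adjusted p 0.104). Vegfa, the angiogenic growth factor, covered 49.4 to 69.9 CPM on day 3 and 50.1 to 82.0 CPM on day 7 in WT (log2 fold change 0.071, SE 0.12, adjusted p 0.732). In KO it covered 46.1 to 84.9 and 43.4 to 129 CPM, with a change of 0.0074 (SE 0.21, adjusted p 0.986), and the groups overlapped in both genotypes. The KO change was -0.054 without the library labelled d3_KO_345 and -0.22 without the library labelled d7_KO_420.

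Bnip3 encodes a mitochondrial outer membrane protein known for its part in mitophagy and cell death. In WT it ran from 4.395 through 6.28 to 9.47 CPM on day 3 and from 6.27 through 13.5 to 26.5 CPM on day 7, and the log2 fold change was 1.26 (SE 0.29, adjusted p 0.00629). In KO it ran from 4.27 through 5.75 to 6.40 CPM on day 3 and from 4.63 through 8.49 to 21.2 CPM on day 7 (log2 fold change 1.03, SE 0.27, adjusted p 0.0142). In each genotype 6 of 7 libraries of day 7 were above every day 3 library of that genotype, and the remaining one, d7_WT_370 or d7_KO_423, was within the day 3 range. The KO change was 1.01 (SE 0.29, adjusted p 0.0216) with the library labelled d3_KO_345 left out and 0.82 (SE 0.25, adjusted p 0.0295) with the library labelled d7_KO_420 left out.

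Car9 encodes a carbonic anhydrase of the cell surface that acts in pH control. In WT it ran from 59.8 through 72.6 to 91.1 CPM on day 3 and from 84.0 through 97.5 to 115 CPM on day 7, with a log2 change of 0.43 (SE 0.10, adjusted p 0.00801). In KO it ran from 52.8 through 81.7 to 89.0 CPM on day 3 and from 83.6 through 92.6 to 147 CPM on day 7 (log2 fold change 0.32, SE 0.13, adjusted p 0.0883). The KO maximum was the library labelled d7_KO_420, beside 99.7 CPM in the next library. Leaving that library out gave a KO change of 0.21 (SE 0.10, adjusted p 0.155), and without the library labelled d3_KO_345 it was 0.34 (SE 0.13, adjusted p 0.0757). In both genotypes 5 of 7 libraries of day 7 were above every day 3 library.

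Ndrg1 encodes a cytoplasmic protein induced by several stresses, and per kb it was the highest of the 10 on days 3 and 7 in both genotypes. In WT it ran from 195 through 211 to 269.7 CPM on day 3 and from 246 through 364 to 478 CPM on day 7, with a log2 change of 0.70 (SE 0.14, adjusted p 0.00205), with 6 of 7 libraries above every day 3 library. In KO it ran from 192 through 264 to 347 CPM on day 3 and from 227 through 266 to 829 CPM on day 7 (log2 fold change 0.38, SE 0.25, adjusted p 0.342). Only the library labelled d7_KO_420, at 829 CPM, was above every KO day 3 library, and without it the change was 0.012 (SE 0.14, adjusted p 0.964). The highest of KO day 3 was the library labelled d3_KO_345, and leaving it out gave 0.45 (SE 0.26, adjusted p 0.255).

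Ankrd37, a small ankyrin-repeat protein gene, was the one called in KO alone. In KO it ran from 2.22 through 3.80 to 7.15 CPM on day 3 and from 4.19 through 6.63 to 14.8 CPM on day 7 (log2 fold change 0.99, SE 0.31, adjusted p 0.0362), with 2 of 7 libraries above every day 3 library. This call was lost in 8 of the 15 fits that left out 1 library, where adjusted p reached 0.0942, among them the fit without the library labelled d3_KO_345 (0.90, adjusted p 0.0532). In WT it ran from 2.83 through 4.93 to 16.9 CPM on day 3 and from 7.47 through 10.8 to 20.4 CPM on day 7 (log2 fold change 0.72, SE 0.35, adjusted p 0.162). The value of 16.9 CPM was that of d3_WT_381, without which the WT change was 1.06 (SE 0.28, adjusted p 0.0131), and without d7_WT_431, the highest of day 7, it was 0.54 (SE 0.34, adjusted p 0.325).

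**Figure D2:**
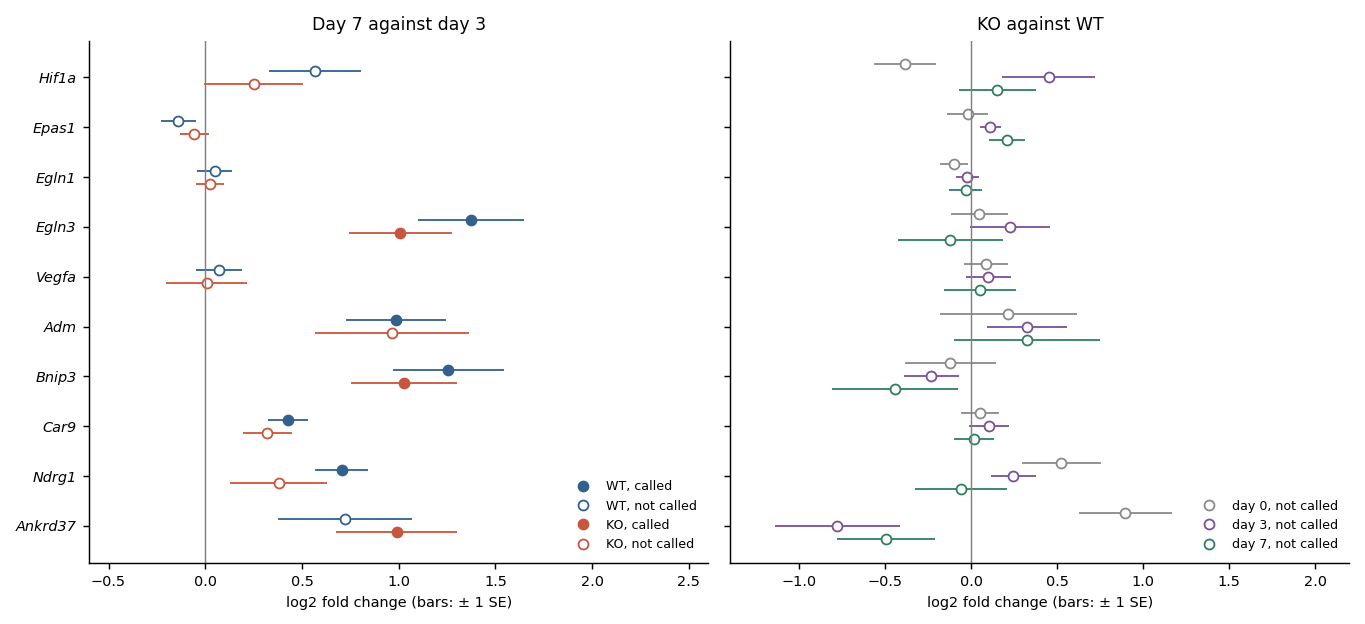
Log2 fold change of each gene with 1 SE on either side, for day 7 against day 3 in each genotype (left) and for KO against WT on each day (right); filled points passed an adjusted p of 0.05 and open points did not. On the left 5 WT and 3 KO points are filled, and on the right all 30 are open.

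Whether the change from day 3 to day 7 differed between genotypes was tested as an interaction. None of the 10 genes was called by edgeR or by the DESeq2 Wald test, where 0% of 16371 genes were called by edgeR. None of the 10 had an unadjusted p under 0.05 in edgeR, beside 440 of all genes tested. The interaction was -0.35 for Egln3 (SE 0.40), -0.31 for Ndrg1 (SE 0.30), -0.21 for Bnip3 (SE 0.41) and 0.29 for Ankrd37 (SE 0.49) on the log2 scale. With the library labelled d3_KO_345 left out these were -0.26, -0.24, -0.23 and 0.20, without the library labelled d3_WT_346 -0.45, -0.33, -0.20 and 0.39, and without the library labelled d7_KO_420 -0.65, -0.67, -0.41 and 0.34. The interaction of Hif1a was -0.30 (SE 0.37), -0.091 without the library labelled d3_KO_345, -0.52 without the library labelled d3_WT_346 and -0.44 without the library labelled d7_KO_420. None of the 10 was called in any of these fits, and a p that misses the threshold does not show that the genotypes changed alike.

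KO was compared with WT on each day to ask whether loss of Hk2 moved these genes. None of the 10 was called on day 0, where 0.0335% of 14944 genes were called, on day 3, where 0.00647% of 15461 were called, or on day 7, where 0.00642% of 15584 were called. At an unadjusted p under 0.05 there were 2, 1 and 0 of the 10 on days 0, 3 and 7, beside 1563, 1218 and 2017 of all genes tested. The DESeq2 Wald test called none of the 10 either. EdgeR also called none of the 10 on day 3 or day 7 when any of the 3 libraries named for their Hk2 level was left out. The median log2 difference over the 10 was 0.050, 0.11 and -0.0071 on these days. The groups overlapped for each gene on each day apart from Ankrd37 on day 0. The share of all genes without overlap was not counted, so this does not set Ankrd37 apart.

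Ankrd37 had the largest log2 difference of the 10 on each day, higher in KO on day 0 and lower on days 3 and 7. On day 0 it was 2.83, 3.15, 3.79 and 4.11 CPM in the 4 WT libraries and 4.39, 4.58, 5.86, 7.30 and 10.9 CPM in the 5 KO libraries. The log2 difference was 0.90 (SE 0.27, adjusted p 0.325). The small intestine score was also higher in KO day 0, as given above, and with that score as a covariate the difference was 0.41 (SE 0.29, adjusted p 0.544). On day 3 Ankrd37 was lower in KO by a log2 difference of -0.78 (SE 0.36, adjusted p 0.623), which was -0.43 without d3_WT_381 and -0.68 without the library labelled d3_KO_345, and on day 7 by -0.49 (SE 0.28, adjusted p 0.451).

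For the alpha subunits, Hif1a on day 0 was 139, 142, 159.8 and 165 CPM in WT and 73.1, 110.4, 117, 119.8 and 166 CPM in KO, a log2 difference of -0.38 (SE 0.18, adjusted p 0.486), which was -0.69 (SE 0.21, adjusted p 0.415) when the model held the small intestine score. On day 3 the difference was 0.45 (SE 0.27, adjusted p 0.642), and 0.24 (SE 0.23, adjusted p 0.826) without the library labelled d3_KO_345, which had the highest Hif1a of all 38. Epas1 was 92.2, 99.0, 106 and 136 CPM in WT day 0 and 97.6, 103, 104, 115 and 120.4 CPM in KO day 0 (log2 difference -0.019, SE 0.12, adjusted p 0.965). Its differences on days 3 and 7 were 0.11 (SE 0.061, adjusted p 0.630) and 0.21 (SE 0.10, adjusted p 0.398).

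The hydroxylases overlapped between genotypes on day 0. Egln1 was 37.8, 40.4, 40.8 and 46.1 CPM in WT and 36.4, 37.9, 38.5, 40.003 and 41.3 CPM in KO, and Egln3 was 15.6, 15.9, 16.6 and 18.1 CPM in WT and 12.8, 13.5, 17.6, 19.03 and 23.6 CPM in KO. On day 7 the log2 difference of Egln3 was -0.12 (SE 0.31, adjusted p 0.879), and -0.43 (SE 0.25, adjusted p 0.303) without the library labelled d7_KO_420. Ndrg1 was 87.5, 108, 139.5 and 188 CPM in WT day 0 and 129, 169.8, 192, 196 and 263 CPM in KO day 0, a log2 difference of 0.52 (SE 0.23, adjusted p 0.463). A model that held the small intestine score gave 0.092 (SE 0.22, adjusted p 0.870). On day 7 its difference was -0.060 (SE 0.27, adjusted p 0.938), and -0.43 (SE 0.15, adjusted p 0.107) without the library labelled d7_KO_420.

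The remaining targets had log2 differences between genotypes of -0.44 to 0.33 on the 3 days. Bnip3 was 3.41, 6.60, 7.15 and 7.22 CPM in WT day 0 and 3.74, 4.34, 5.92, 6.92 and 7.64 CPM in KO day 0, and its difference on day 7 was -0.44 (SE 0.37, adjusted p 0.599), or -0.65 (SE 0.36, adjusted p 0.289) without the library labelled d7_KO_420. Car9 was 52.2, 52.5, 55.9 and 57.7 CPM in WT day 0 and 49.8, 54.04, 54.05, 55.6 and 72.1 CPM in KO day 0, and its difference on day 7 was 0.017 (SE 0.12, adjusted p 0.962). Vegfa was 64.5, 67.7, 73.7 and 75.3 CPM in WT day 0 and 58.4, 70.2, 74.7, 75.9 and 97.2 CPM in KO day 0. Adm was 3.39, 4.64, 6.09 and 12.6 CPM in WT day 0 and 3.75, 5.86, 7.23, 10.00 and 13.5 CPM in KO day 0. For 8 of the 10 genes the highest KO day 0 library was d0_KO_60, which also had the highest small intestine score, 4.58. The share of all genes highest in that library was not counted, so this does not set the 10 apart. A link with the score was not tested for single libraries.

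Comparisons with day 0 carry the change of prefix letter with them, and the possible difference in age given at the start. On day 3, 4 of 10 genes were called higher in WT, where 46% of 17152 genes were called, and 5 of 10 in KO, where 46.3% of 16010 were called. On day 7, 6 of 10 were called higher in WT against 56.9% of 17428 genes, and 7 of 10 in KO against 54.6% of 16367. With all libraries none of the 10 was called lower. Counted in either direction, the shares of the 10 thus lie near those of all genes, which are also for either direction. Of all genes, 4393, 3790, 5082 and 4472 were called lower and 3500, 3619, 4837 and 4466 higher, in the same order. The 10 were chosen with earlier results of these data known, so their direction is a description only. Within each genotype the comparisons share their day 0 libraries. With the library labelled d3_KO_345 left out, 4 of 10 were called in KO on day 3. When the library labelled d7_KO_420 was left out, 7 of 10 were called in KO on day 7, with Bnip3 lost and Vegfa called lower (-0.42, SE 0.15, adjusted p 0.0275). Leaving out the library labelled d3_WT_346, 5 were called in WT on day 3, with Hif1a called lower (-0.45, SE 0.15, adjusted p 0.0255).

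Egln3, Car9, Egln1 and Ndrg1 were called higher in all 4 comparisons with day 0, Ndrg1 in KO with less margin. How many of all genes were called higher in all 4 was not counted. From day 0 to day 7, Egln3 rose by a log2 fold change of 2.24 in WT (SE 0.28, adjusted p 2.5e-05) and 2.06 in KO (SE 0.33, adjusted p 0.000143), and its groups did not overlap. Car9 rose by 0.82 in WT (SE 0.099, adjusted p 1.6e-05) and 0.78 in KO (SE 0.14, adjusted p 0.00038), also without overlap. The share of all genes without overlap was not counted here either. Ndrg1 rose by 1.44 in WT (SE 0.23, adjusted p 0.000146) and by 0.84 in KO (SE 0.31, adjusted p 0.0343). Both KO calls of Ndrg1 depended on single libraries. That of day 7 was lost without d0_KO_24, d0_KO_32, d0_KO_53 or d0_KO_54 (adjusted p up to 0.0716) and was 0.47 without the library labelled d7_KO_420. That of day 3, at 0.46 (SE 0.18, adjusted p 0.0495), was lost without the library labelled d3_KO_345 (0.38, adjusted p 0.0873), without any of the same 4 day 0 libraries, and in 5 of 8 other settings (adjusted p up to 0.127). Egln1 rose by 0.31 in WT (SE 0.11, adjusted p 0.0281) and 0.38 in KO (SE 0.087, adjusted p 0.00239). Its WT calls were lost without d0_WT_41, d0_WT_43 or d0_WT_46 on both days.

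Bnip3 was not called between day 0 and day 3, with log2 fold changes of 0.059 in WT (SE 0.25) and -0.047 in KO (SE 0.17), and was called on day 7 at 1.32 in WT (SE 0.37, adjusted p 0.00784) and 0.99 in KO (SE 0.38, adjusted p 0.0382). Its KO call was lost without d0_KO_24, d0_KO_32, d0_KO_53 or the library labelled d7_KO_420 (adjusted p 0.0561 to 0.0983). Ankrd37 on day 7 was called in WT at 1.74 (SE 0.25, adjusted p 7.4e-05) and was at 0.34 in KO (SE 0.34, adjusted p 0.410). This difference between genotypes, as an interaction of -1.36 (SE 0.44, adjusted p 0.208), was not called, and it was -1.35 (SE 0.45, adjusted p 0.108) without the library labelled d7_KO_420. None of the 10 genes was called for this interaction, where 0.00531% of 18830 genes were. An unadjusted p under 0.05 was found for 1 of the 10, beside 2544 of all genes tested. Hif1a and Epas1 were called higher on day 7 against day 0 in KO, at 0.88 (SE 0.24, adjusted p 0.00677) and 0.37 (SE 0.10, adjusted p 0.00725). In WT they were at 0.35 (SE 0.21, adjusted p 0.177) and 0.15 (SE 0.13, adjusted p 0.358). Vegfa and Adm were not called in any of the 4 comparisons with all libraries.

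Other genes of the pathway were taken from 4 further lists, whose counts stand beside the 19.3% of all genes called in each genotype. The lists were chosen with earlier results of these data known, so their counts are a description and no independent support. Of 15 genes of the HIF machinery (partners, hydroxylases, the ubiquitin ligase and co-activators), 1 was called higher between day 3 and day 7 in WT, the partner subunit Arnt2 (log2 fold change 0.77, SE 0.24, adjusted p 0.0326), and none in KO. Of the 14 glycolytic target genes, 7 were called higher in WT and none lower, and in KO 4 were called higher and 1 lower. Slc16a3, the lactate exporter MCT4, changed by 2.80 in WT (SE 0.34, adjusted p 8.2e-05) and 2.35 in KO (SE 0.35, adjusted p 0.000227). Pfkfb3, which makes the activator of phosphofructokinase, changed by 3.30 in WT (SE 0.50, adjusted p 0.000366) and 2.27 in KO (SE 0.33, adjusted p 0.000180). Eno1, the enolase, changed by 0.64 in WT (SE 0.14, adjusted p 0.00522). The gene that fell in KO was Pfkfb4, another isoform of the same enzyme family (-0.58, SE 0.15, adjusted p 0.0134). The list's median was 0.38 in WT and 0.24 in KO. The KO counts with the library labelled d3_KO_345 left out were again 4 higher and 1 lower, with Pfkfb3 at 2.59 and Slc16a3 at 2.56, and without the library labelled d7_KO_420 they were 2 higher and 1 lower, with Pfkfb3 at 2.01 and Slc16a3 at 2.16.

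Of 30 other known targets, 26 were tested, with 8 called higher in WT and 9 in KO and none lower. Ak4, a mitochondrial adenylate kinase, changed by 2.18 in WT (SE 0.35, adjusted p 0.000608) and 1.66 in KO (SE 0.33, adjusted p 0.00215). Cxcr4, a chemokine receptor, changed by 2.25 in WT (SE 0.33, adjusted p 0.000301) and 1.63 in KO (SE 0.37, adjusted p 0.00500). Fam162a, a mitochondrial protein gene, changed by 1.13 in WT (SE 0.23, adjusted p 0.00351), and Hmox1, the haem oxygenase, by 1.73 in KO (SE 0.35, adjusted p 0.00223). The list's median was 0.29 in WT and 0.38 in KO. In KO 10 were called higher without the library labelled d3_KO_345 (Ak4 1.70, Hmox1 1.88, Cxcr4 1.89), and 8 higher and 2 lower without the library labelled d7_KO_420 (Ak4 1.62, Hmox1 1.27, Cxcr4 1.38). Of the 10 targets described in gut epithelium, 7 were tested. Adora2b, an adenosine receptor, was called higher in both genotypes, at 0.95 in WT (SE 0.24, adjusted p 0.0109) and 0.98 in KO (SE 0.15, adjusted p 0.000266). In KO the iron exporter Slc40a1 was also called higher (0.69, SE 0.19, adjusted p 0.0171) and the trefoil factor Tff3 lower (-0.53, SE 0.14, adjusted p 0.0152). The KO counts of this list were 2 higher and 2 lower without the library labelled d3_KO_345, and 2 higher and 3 lower without the library labelled d7_KO_420. In WT without the library labelled d3_WT_346 the 4 lists had 1, 7, 7 and 1 genes called higher, in the order given here, and none lower. Between genotypes, 0 genes of the 4 lists were called on any day by edgeR. At an unadjusted p under 0.05 the other targets had 6 of 22, 2 of 25 and 4 of 26 genes tested on days 0, 3 and 7. Each of the other lists had 0 to 2. Of all genes tested, 1563 of 14944, 1218 of 15461 and 2017 of 15584 had such a p on these days.

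**Figure D3:**
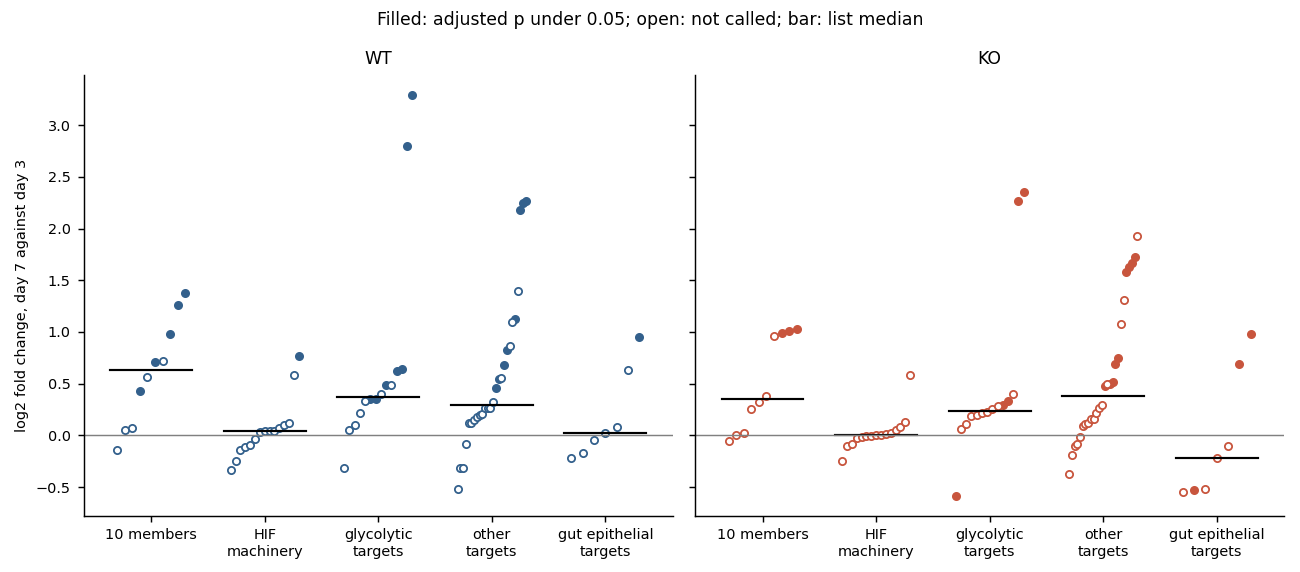
Log2 fold change from day 3 to day 7 of each tested gene in the 10 members and the 4 pathway lists, in WT (left) and KO (right), with a bar at the list median; filled points passed an adjusted p of 0.05. The HIF machinery sits near 0 (medians 0.041 and 0.0041), while the glycolytic targets reach 3.30 in WT (Pfkfb3).

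Markers of other cells and regions also moved between day 3 and day 7. All 12 myeloid markers were called higher in both genotypes, as given above, and of 8 lymphocyte markers 4 were called higher in WT and 8 in KO (median log2 fold changes 1.41 and 1.12). Of 6 distal colon markers, 3 were called lower and 1 higher in WT, and 4 lower in KO (medians -0.47 and -1.37). Of 8 stromal markers, 1 was called higher in KO. Of 3 endothelial markers tested, 1 was called lower in each genotype. Of 8 epithelial markers, 1 was called lower in KO, and of 8 small intestine enterocyte genes tested, 2 were called higher in WT. The part of these in the members' changes was not tested, apart from slopes on marker scores within day 7. The members were set against the myeloid score (mean log2 CPM of the 12 markers) within day 7. In the 14 day 7 libraries, with genotype in the model, the slope per unit of score was positive for 10 of 10 genes and called for 0 of 10, where 3.58% of 15584 genes were called. At an unadjusted p under 0.05 there was 1 of the 10, beside 1981 of all 15584 genes. The largest slope was that of Adm, 0.43 log2 units per unit of score (SE 0.20, adjusted p 0.391), followed by Bnip3 at 0.25 (SE 0.20) and Egln3 at 0.23 (SE 0.15). Car9, Egln1 and Ankrd37 had slopes of 0.026, 0.033 and 0.047. Leaving out the library labelled d7_KO_420, which had both a score of 5.58 and the highest Adm, the slope of Adm was 0.15 (SE 0.15, adjusted p 0.683), and those of Vegfa, Car9 and Ndrg1 were negative. Among the pathway genes Pfkfb3 (0.89, SE 0.12, adjusted p 0.000314), Slc16a3 (0.61, SE 0.11, adjusted p 0.00388) and Hmox1 (0.83, SE 0.11, adjusted p 0.000255) were called. The myeloid score of 3.502 in the library labelled d3_KO_345, within the day 7 range, stood beside the highest Hif1a of all 38 libraries (357 CPM), the highest Ndrg1 and Egln3 of KO day 3 (347 and 51.6 CPM), and 7.44 CPM of Adm, 5.22 CPM of Bnip3 and 2.29 CPM of Ankrd37.

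**Figure D4:**
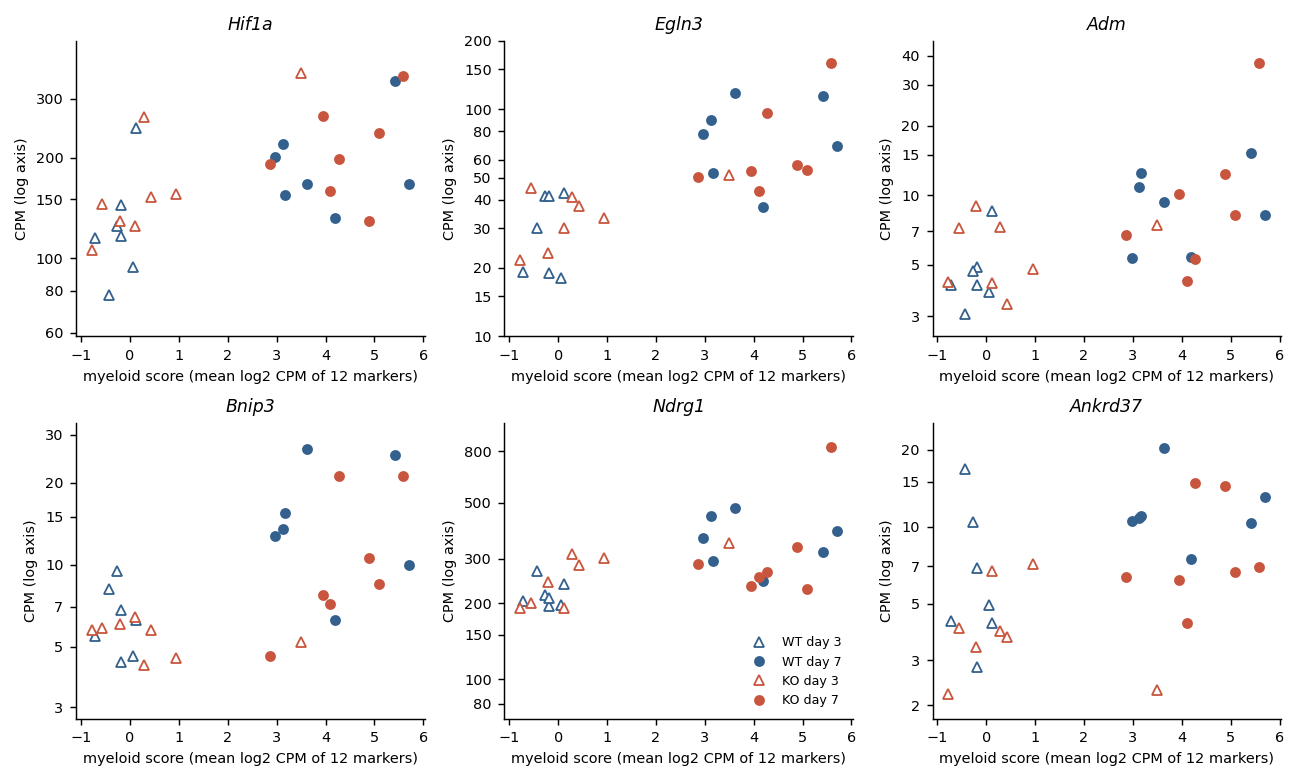
CPM (log axis) of 6 genes against the myeloid score in the libraries of day 3 (open triangles) and day 7 (filled circles), WT blue and KO red. The day 7 libraries lie at scores of 2.86 to 5.71, and within them Bnip3 and Ankrd37 are at their WT maximum, 26.5 and 20.4 CPM, at a score of 3.63.

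In KO day 7, the library labelled d7_KO_420 was the highest library for 7 of the 10 genes, and in WT day 7 d7_WT_431 was the highest for 6. The share of all genes highest in these libraries was not counted. Likeness across animals was described by the correlation of log2 CPM after removing each group's mean, over the 38 libraries and against 19143 other genes, with no test since the libraries share depth and composition. The gene closest to Bnip3 was its paralogue Bnip3l (r 0.81), another mitophagy receptor. For Ndrg1 the 3 closest were Tbc1d15 (r 0.89), the glucose transporter gene Slc2a1 (r 0.85) and Ell2 (r 0.84). For Hif1a the closest was Lrrfip1 (r 0.93), for Adm it was Mdm2 (r 0.86), and for Egln3 it was Ppap2c (r 0.85).

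Within the 10 genes, the closest pair was Adm and Vegfa (r 0.76), where Adm ranked 15th for Vegfa and Vegfa 20th for Adm. The library labelled d7_KO_420 was the highest of KO day 7 for both, and no correlation was computed without it. Egln3 ranked 12th for Bnip3 (r 0.70), and Bnip3 ranked 140th for Egln3. For Hif1a, Epas1, Car9, Egln1, Ndrg1 and Ankrd37 the nearest members ranked further down, among them Egln3 for Hif1a (r 0.67), Ndrg1 for Car9 (r 0.61), Egln3 for Ndrg1 (r 0.65) and Bnip3 for Ankrd37 (r 0.51). The closest genes to Vegfa were Fhdc1 (r 0.84), to Car9 Serinc2 (r 0.85), to Epas1 Ptprj (r 0.77), to Egln1 Usf2 (r 0.75) and to Ankrd37 2010002M12Rik (r 0.80).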

How the data were processed

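RNA of intestinal epithelial cells from 38 mice was sequenced as a stranded mRNA library per mouse, and each library was deposited as 2 lanes. The deposited values are gene counts made by the authors with featureCounts, version 1.6.2 per the file headers and 1.5.2 per the submitters' processing notes, which also name Trim Galore, STAR and GRCm38. Strand was ignored in counting, per the file headers, and the annotation release is not given in the sources used here. Lanes were summed. Nothing in the labels pairs animals across groups.

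Counts were tested with edgeR 4.0.16 (R 4.3.3, limma 3.58.1) using TMM scaling, filterByExpr by group and the quasi-likelihood test, with only the groups compared in each fit and Benjamini-Hochberg adjustment over all genes that passed. CPM and scores used TMM-scaled totals, and log2 CPM a prior count of 2. The 10 members and all gene lists were chosen with earlier results of these data known. The lists were HIF machinery, glycolytic, other and gut epithelial HIF targets, and markers of epithelial, myeloid, lymphocyte, endothelial, stromal, small intestine enterocyte and distal colon cells. All members and Hk2 are named, and for each pathway list up to 3 called genes with the smallest adjusted p. Likeness names up to 3 genes with the highest correlation per member.

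Alternatives were DESeq2 1.42.0 size factors and its Wald test, robust dispersions, no filter or a filter at a mean CPM of 1, the first lane by itself, 1 fit of all 38 libraries, scaling without mitochondrial-genome and histone genes, myeloid or small intestine scores as covariates, lymphocyte or endothelial scores for the slope, CPM without TMM, and leaving out libraries. Leaving libraries of days 3 or 7 out of the comparisons with day 0, the libraries labelled d3_WT_346 or d7_KO_420 out of the interactions, and these or the library labelled d3_KO_345 out of the pathway lists was chosen after seeing the data. The code was tested on simulated data. P-values measure the spread between animals. Python tools were pandas 2.3.3 and matplotlib 3.10.9.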

Additional observations from a re-analysis of the deposited data

Results flagged for a closer look

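Among 60 sets of 1 gene in 1 group, 9 had a library whose gap to the next was large for the range of its group by Dixon's criterion at 95%. Chance meets it in about 1 in 20 sets of normally distributed values. The 60 sets share libraries and are not independent, and the rate over all genes was not counted, so the 9 do not show an excess. Of the 9, 4 were the library labelled d7_KO_420. In KO day 7 it had 829 CPM of Ndrg1 beside 335 in the next library, 37.2 CPM of Adm beside 12.3, 129 CPM of Vegfa beside 72.6 and 147 CPM of Car9 beside 99.7. In WT day 3, the library labelled d3_WT_346 had 245 CPM of Hif1a beside 144 in the next library and 8.52 CPM of Adm beside 4.88. In WT day 7, d7_WT_356 had 338 CPM of Hif1a beside 220.0. On day 0, d0_KO_32 had 72.1 CPM of Car9 beside 55.6 in the next KO library, and d0_WT_43 had 3.41 CPM of Bnip3, the lowest WT value, beside 6.60.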

How the results depend on the processing

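No paired analysis was possible because the groups share no animal numbers. Of 1900 member values under alternatives, 1781 kept direction and side of the threshold, 35 lost a call, 15 gained one and 69 changed sign. In KO from day 3 to day 7, 3 genes were called, and 5 with all 38 libraries in the fit. Genes called overall with the DESeq2 Wald test and with edgeR were 177 and 5 for KO against WT on day 0, 2 and 1 on day 3, 83 and 1 on day 7, and 174 and 1 for genotype by day 7 against day 0. For KO against WT on day 0, edgeR called 52 without a filter, 2 with the myeloid and 0 with the small intestine score as covariate, and 0 to 37 when 1 library was left out. On day 3 it called 0 at a mean CPM of at least 1, and 0 to 1 when 1 library was left out. On day 7 it called 2 without a filter, 0 at a mean CPM of at least 1, 38 with all 38 libraries, and 1 to 2 when 1 library was left out. The slope had 0 calls with the lymphocyte or endothelial score. Without TMM scaling, Car9 in WT day 0 moved to 58.0 CPM and Egln1 in KO day 0 to 35.4 CPM.

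Values that changed sign follow, and the cause was not tested. For KO against WT they were, with the small intestine score on day 0, Vegfa -0.15, Egln3 -0.17 and Adm -0.39, and with the myeloid score Egln1 0.014 on day 3 and Vegfa -0.022 and Adm -0.0024 on day 7. From day 3 to day 7 in KO, Vegfa was -0.0028 in lane 1. From day 0 to day 3, Bnip3 in WT was -0.023 at a mean CPM of at least 1 and -0.041 in lane 1, and in KO 0.023 without a filter. For genotype by day 7 against day 3, Adm was 0.0021 without a filter and Egln1 0.023 in lane 1, and against day 0, Vegfa was 0.0024 and Car9 0.0012 without a filter and Vegfa 0.00026 without mitochondrial-genome and histone genes. Slopes on the lymphocyte score were Hif1a -0.16, Vegfa -0.16, Car9 -0.050, Ndrg1 -0.14 and Adm -0.27, and on the endothelial score Vegfa -0.27, Bnip3 -0.19, Car9 -0.12, Egln3 -0.022, Ndrg1 -0.34 and Adm -0.49.

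When 1 library was left out, KO against WT on day 0 ranged from -0.032 to 0.76 for Adm, -0.30 to 0.011 for Bnip3, -0.034 to 0.10 for Car9, -0.084 to 0.14 for Egln3, -0.086 to 0.12 for Epas1 and -0.021 to 0.17 for Vegfa. On day 3 Egln1 ranged from -0.059 to 0.016. On day 7 the ranges were -0.28 to 0.47 for Adm, -0.098 to 0.058 for Car9, -0.080 to 0.021 for Egln1, -0.43 to 0.0023 for Egln3, -0.43 to 0.022 for Ndrg1 and -0.18 to 0.13 for Vegfa. From day 3 to day 7, Egln1 ranged from -0.0015 to 0.086 in WT and -0.025 to 0.054 in KO, and Vegfa from -0.22 to 0.091 in KO. From day 0 to day 3, Bnip3 ranged from -0.13 to 0.17 in WT and -0.17 to 0.080 in KO. From day 0 to day 7 in KO, Adm ranged from -0.067 to 0.81. For genotype by day 7 against day 3, Adm ranged from -0.60 to 0.041 and Egln1 from -0.032 to 0.0020, and against day 0 Adm was -0.52 without the library labelled d7_KO_420, where 279 genes were called in all. Slopes on the myeloid score ranged from -0.012 to 0.087 for Ankrd37, -0.055 to 0.036 for Car9, -0.049 to 0.22 for Ndrg1 and -0.00016 to 0.21 for Vegfa. Depth limits Adm, Bnip3 and Ankrd37 most, the lowest of the 10 per kb in each group.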
